A study of Rattus norvegicus with 4 samples.

Results

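Tdh encodes L-threonine dehydrogenase, the mitochondrial enzyme that oxidises threonine to 2-amino-3-ketobutyrate, and it was examined in rat pancreas with 9 other genes of serine, glycine and threonine metabolism. The 10 members, Tdh, Gcat, Gldc, Phgdh, Psat1, Shmt1, Shmt2, Gatm, Gnmt and Agxt2, were picked from earlier results of the same arrays, so their ratios are given as a description. They were found by gene symbol and are measured by 11 of the 30367 gene probes on the array, which stand for 26485 genes or transcripts. Gatm has 2 probes and each other member has 1.

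Weanling male Sprague-Dawley rats ate for 3 weeks an iron-deficient diet (FeD, 5 ppm iron), an iron-adequate control diet (FeA, 35 ppm per the labels) or an iron-overloaded diet (FeO, 20275 ppm, from carbonyl iron). All diets shared 1 purified formulation, and all rats were fasted overnight before the pancreas was taken. Total RNA of 6 rats was combined into 1 pool per diet, and each of the FeD and FeO pools met the FeA pool on 2 arrays, labelled with Cy3 and Cy5 in either order. As both arrays of a comparison carry RNA of the same pools, the spread between them is technical, no test of the diets was possible, and the comparisons share the FeA pool.

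The 4 arrays came from 1 slide and 1 scan. The median spot of a channel read 115 to 222.5 intensity units, its median local background was 50 to 87, and 61.9% to 71.5% of spots were well above background by the criterion of the scanner software. Each value below is the log2 ratio of the diet pool over the FeA pool, and a mean is the mean of 2 arrays with the SD between them. In RNA from whole pancreas, fewer cells of a type and less RNA per cell cannot be told apart.

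Threonine can be broken down to glycine in mitochondria, where Tdh acts first and Gcat then splits its product into glycine and acetyl-CoA. Serine is built from a glycolytic intermediate by Phgdh, Psat1 and Psph, and serine and glycine are interconverted by Shmt1 in the cytosol and Shmt2 in mitochondria, which feeds one-carbon units into folate. Glycine is broken down by the glycine cleavage system and used for creatine, heme and bile acid conjugates. The exocrine pancreas makes large amounts of digestive enzymes and is known for a high demand for amino acids.

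Tdh mRNA was higher in both diet pools than in the FeA pool. On the FeD arrays the Tdh spot read 2299 intensity units in the FeD channel against 200 in the FeA channel on array 1, and 883 against 250 on array 2, where the dyes were swapped. On the FeO arrays it read 819 in the FeO channel against 163 in the FeA channel on array 1, and 451 against 209 on array 2. The local background around these spots was 52 to 91.5 units, and the probe was well above background in all 8 channels.

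After normalization within and between arrays, the log2 level of Tdh was 10.45 and 10.32 in the FeD channels and 9.13 and 9.13 in the FeO channels. The 4 FeA channels read 7.90, 7.45, 7.70 and 7.25, a range of 0.65. The 3 pools did not overlap, and their order was FeD, then FeO, then FeA. The steps between neighbouring pools were wider than the spread among channels of the same pool.

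The log2 ratio of Tdh in FeD was 2.55 on array 1 and 2.88 on array 2, a mean of 2.71 ± 0.23 (SD, n = 2 arrays), or 6.55-fold. In FeO it was 1.43 and 1.88, a mean of 1.65 ± 0.32 (SD, n = 2 arrays), or 3.15-fold. Tdh had the second highest mean log2 ratio of 15727 genes in FeD and place 21 from the top of 16425 genes in FeO. Its FeD mean log2 ratio was 1.06 above its FeO mean, a difference reached through the shared FeA pool and not tested.

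**Figure D1:**
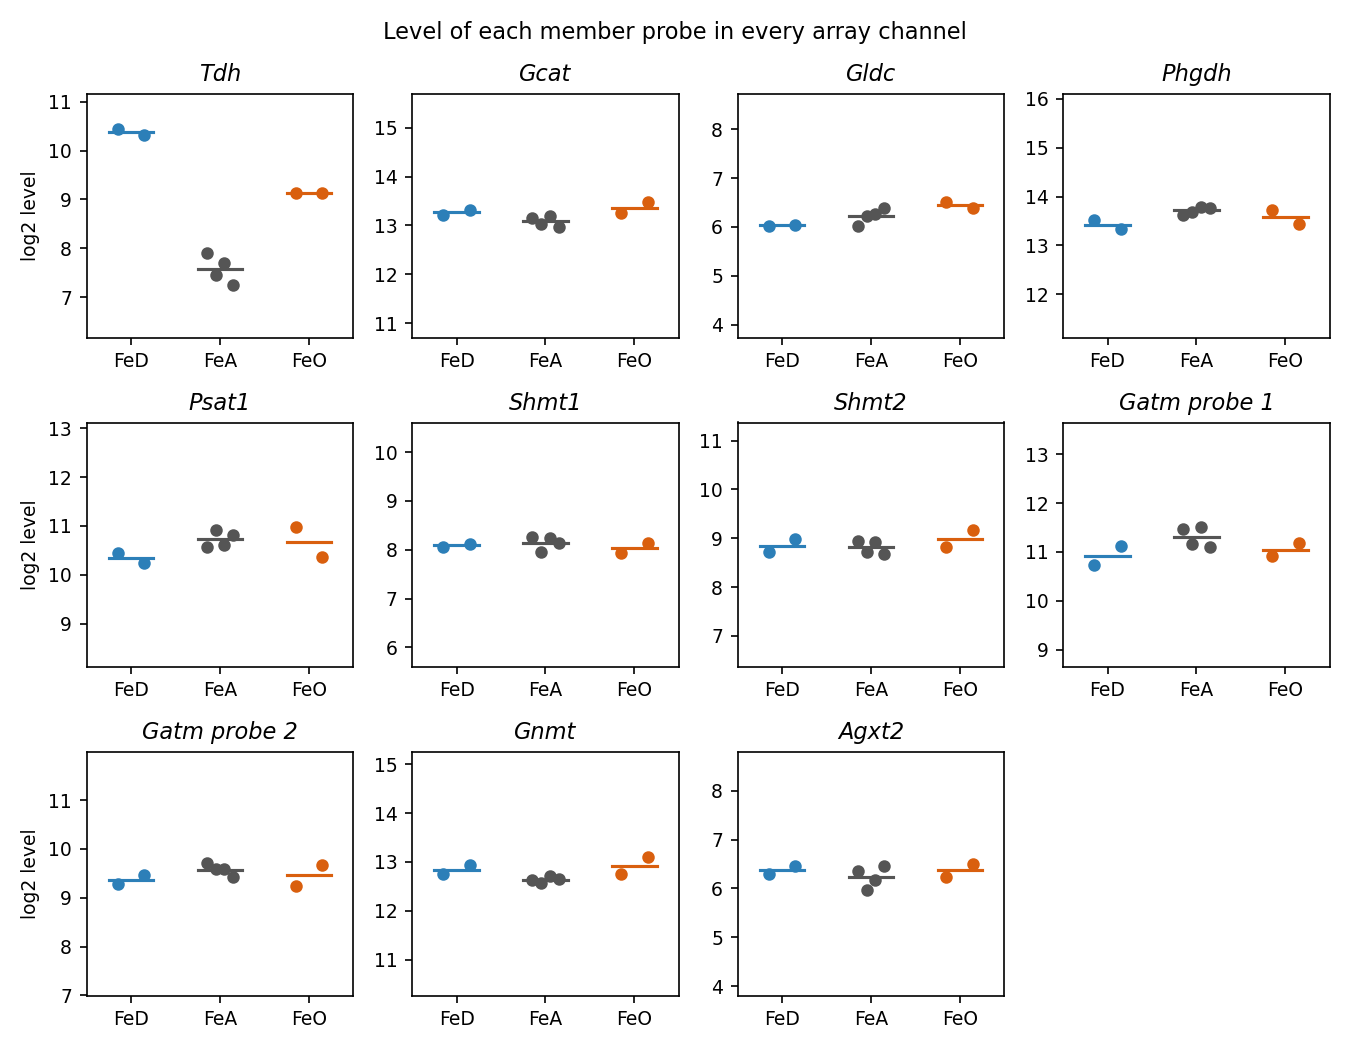
Log2 level of each of the 11 member probes in every array channel (y axis, log2 intensity after normalization, each panel with its own range of the same span), for the FeD, FeA and FeO pools. Points are single channels and lines are means. The Tdh levels of the 3 pools lie apart, from 7.25 to 7.90 in FeA, at 9.13 in FeO and from 10.32 to 10.45 in FeD.

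Of the 10 members, 8 passed the filter on dim probes in FeD and 9 in FeO, which asked that a probe be well above background in at least 1 pool on each array. At a log2 ratio of at least 2 in size with the same sign on both arrays, 1 of the 8 members was past the criterion in FeD, Tdh itself, where 0.102% of all genes were. In FeO 0 of the 9 members were past it, where 0.177% of all genes were. At a log2 ratio of 1, Tdh was the single member past the criterion in each comparison, beside 0.356% of genes in FeD and 1.08% in FeO. Nothing is read from these shares, since the members were chosen on the same contrasts.

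The mean log2 ratio of every other member stayed within 0.5 in size in both comparisons, where 2.65% of all genes in FeD and 5.31% in FeO lay past it with the same sign on both arrays. Among the members that passed the filter, 4 were higher and 4 lower in FeD, with a median log2 ratio of -6.7e-05, and 5 were higher and 4 lower in FeO, with a median of 0.13. Over all genes tested the median was 0.010 in FeD and 0.015 in FeO. The arrays of a comparison differed by a median of 0.35 across the members in FeD and 0.43 in FeO, against 0.219 and 0.225 across all genes. Apart from Tdh in both diets and Phgdh in FeD, each member past the filter had a mean log2 ratio smaller in size than the difference between its arrays.

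Gcat, which carries out the step after Tdh, was close to its FeA level in both diets. Its log2 ratio was 0.07 and 0.30 in FeD, a mean of 0.18 ± 0.16 (SD, n = 2 arrays), and 0.07 and 0.50 in FeO, a mean of 0.29 ± 0.30. Its log2 level was 13.22 and 13.32 in the FeD channels and 13.26 and 13.47 in the FeO channels, above the FeA channels at 12.97 to 13.19. The Gcat channels therefore did not overlap, by a margin far below that of Tdh.

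Gldc, the glycine decarboxylase of the glycine cleavage system, was not well above background in any of the 4 channels of the FeD comparison, where its spot read 69 to 112 intensity units. In the FeO comparison it was well above background on 2 arrays in FeO and on 1 array in FeA, with a log2 ratio of 0.25 and 0.00019, a mean of 0.13 ± 0.18 (SD, n = 2 arrays). The level of Gldc lay near the detection limit in all pools.

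Of the enzymes of serine synthesis, both members were slightly below FeA in FeD. Phgdh, which carries out the committed step, had a log2 ratio of -0.12 and -0.34 in FeD, a mean of -0.23 ± 0.16 (SD, n = 2 arrays), and of -0.07 and -0.33 in FeO, a mean of -0.20 ± 0.18. Psat1, the phosphoserine aminotransferase, had a log2 ratio of -0.12 and -0.68 in FeD, a mean of -0.40 ± 0.39, about the size of its SD. In FeO the Psat1 arrays pointed in opposite directions, 0.38 and -0.44. The FeD channels of Phgdh, at a log2 level of 13.51 and 13.34, lay below the FeA channels at 13.63 to 13.79. The FeD channels of Psat1, at 10.45 and 10.23, also lay below the FeA channels at 10.57 to 10.91.

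The serine hydroxymethyltransferases had no ratio of the same sign on both arrays in either diet. Shmt1, the cytosolic enzyme, read -0.19 and 0.18 as log2 ratios on the FeD arrays, and -0.32 and 0.0012 on the FeO arrays. Shmt2, the mitochondrial enzyme, read -0.24 and 0.26 on the FeD arrays, and -0.11 and 0.47 on the FeO arrays. For both genes the level ranges of FeD and FeO overlapped that of FeA, so no difference was detectable beyond the spread between arrays.

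Of the enzymes that use glycine, Gatm, which makes the creatine precursor guanidinoacetate, had a log2 ratio of -0.59 and -0.08 in FeD, a mean of -0.34 over both probes. Its probes gave means of -0.39 and -0.28 in FeD, and the channels of each overlapped FeA. In FeO the Gatm arrays pointed in opposite directions, -0.47 and 0.16. Gnmt, which methylates glycine with S-adenosylmethionine, had a log2 ratio of 0.12 and 0.37 in FeD, a mean of 0.25 ± 0.18 (SD, n = 2 arrays), and of 0.04 and 0.44 in FeO, a mean of 0.24 ± 0.29. The Gnmt level was 12.75 and 12.93 in FeD and 12.75 and 13.10 in FeO, above FeA at 12.56 to 12.71.

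Agxt2, a mitochondrial aminotransferase that forms glycine from glyoxylate, was too dim for the filter. It was well above background on 1 array in FeD and on 0 in FeA of that comparison, with a log2 ratio of -0.06 and 0.49. In the FeO comparison it was well above background on 1 array in each pool, with a log2 ratio of 0.07 and 0.04.

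Channels of a diet pool and FeA did not overlap for 5 of the 9 member probes past the filter in FeD (Tdh, Gcat, Gnmt, Phgdh and Psat1), where 19.6% of all probes did not. In FeO they did not overlap for 4 of 10 (Tdh, Gcat, Gnmt and Gldc), where 25.5% of all probes did not. The lowest FeO level and the highest FeA level of Gldc both rounded to 6.395, near background, so its pools were apart in name only. Nothing is read from these shares either, since the members were chosen on the same contrasts.

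**Figure D2:**
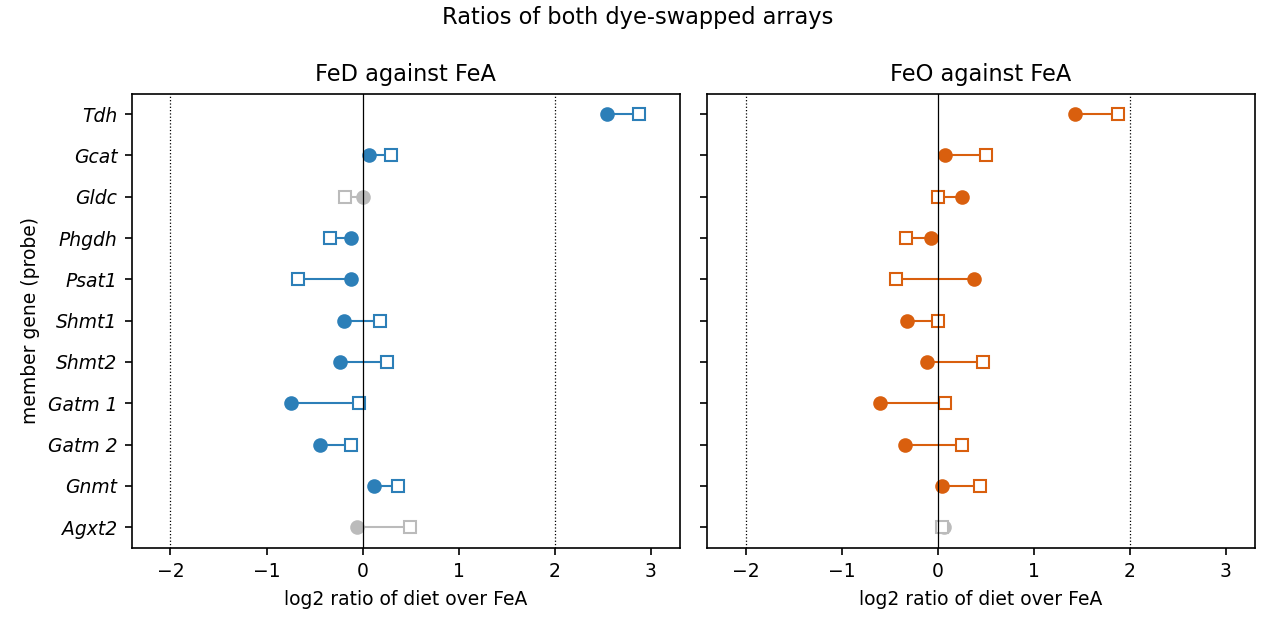
Log2 ratio of diet over FeA (x axis) for each member probe (y axis) in FeD and FeO. Filled circles are array 1, open squares array 2 with the dyes swapped, grey marks probes that did not pass the filter on dim probes, and dotted lines a log2 ratio of 2 in size. Tdh lies at 2.55 and 2.88 in FeD and at 1.43 and 1.88 in FeO, and the arrays of Psat1 in FeO lie on opposite sides of 0.

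The wider pathway was described with 10 gene lists that hold 100 genes, 97 of them on the array. In FeD 76 were tested, with a median log2 ratio of 0.0025, and 2 were past a log2 ratio of 1 with the same sign on both arrays. Both, Tdh and Alas2, were higher. In FeO 80 were tested, with a median of 0.07, and 7 were past it, 6 higher and 1 lower. Without the 10 members, 1 of 68 genes was past it in FeD and 6 of 71 in FeO, or 1.47% and 8.45%, beside 0.356% and 1.08% of all genes. Nothing particular to these lists is read from the shares, since the lists were chosen with earlier results known.

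Alas2, the erythroid enzyme that joins glycine and succinyl-CoA in the first step of heme synthesis, had a log2 ratio of 0.91 and 1.57 in FeD, a mean of 1.24. In FeO Alas2 was at 0.20 and 0.68, a mean of 0.44. It read 2876 intensity units in the FeD channel against 763 in the FeA channel on array 1, and 1380 against 944 on array 2. Baat, which conjugates bile acids with glycine or taurine, was the lowest of the glycine-using genes in FeD, at -0.54. In FeO Baat lay at 0.08, where Gatm was the lowest at -0.15.

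Cth, the cystathionine gamma-lyase that completes the transfer of sulfur from homocysteine to cysteine, had a log2 ratio of 0.69 and 1.56 in FeO, a mean of 1.13. In FeD its arrays gave 0.30 and 1.11, a mean of 0.70. Cth was the highest of the serine-using genes in both diets, and the lowest were Srr, the serine racemase, at -0.11 in FeD and Sptlc2, a serine palmitoyltransferase subunit, at -0.06 in FeO. In the methyl cycle Mat1a, which makes S-adenosylmethionine, reached a log2 ratio of 1.57 and 0.98 on the FeO arrays, a mean of 1.27, and 0.41 and 0.0029 on the FeD arrays. Ahcy, which hydrolyses S-adenosylhomocysteine, was at 0.69 in FeD and 0.70 in FeO, and Aldh7a1, an aldehyde dehydrogenase that forms betaine, was the lowest of that list at -0.60 and -0.65.

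Ggh, which removes glutamates from folates, was the lowest gene of the folate list in both diets. Its log2 ratio was -1.39 and -1.35 in FeO, a mean of -1.37, and -0.64 and -0.55 in FeD, a mean of -0.60. Aldh1l1, the formyltetrahydrofolate dehydrogenase, was the highest of the list at 0.47 in FeD and 0.58 in FeO. The folate list as a whole had a median of -0.09 in FeD and -0.01 in FeO over 13 genes tested.

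Among amino acid transporters, Slc1a5, a carrier of neutral amino acids, had a log2 ratio of 0.93 and 1.26 in FeO, a mean of 1.09, and a mean of 0.22 in FeD. Slc36a2, a proton-coupled carrier of glycine and proline, had a log2 ratio of 1.21 and 1.38 in FeO, a mean of 1.29. It was well above background on 2 arrays in FeO and on 1 in FeA, and its ratio ranged from 1.104 to 2.95 with the background correction. It did not pass the filter in FeD. The transporters had a median of 0.06 in FeD and 0.17 in FeO. By the mean of both arrays 12 of 15 were above 0 in FeO and 9 of 13 in FeD, beside 53.5% and 53.0% of all genes. Slc1a4 and Slc36a2 passed the filter only through the FeO pool, where they were higher. Some of the 12 had arrays of opposite sign, such as Slc3a2 at -0.27 and 0.88, so nothing is read from these counts. Slc38a2 was the highest in FeD at 0.40. The lowest were Slc6a8, the creatine carrier, at -0.25 in FeD and Slc7a5 at -0.06 in FeO.

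Of the genes of the amino acid response, which cells turn on when amino acids run short, 16 were tested in each diet, with a median of 0.0070 in FeD and 0.13 in FeO. Chac1, which degrades glutathione, had a log2 ratio of 0.66 and 1.39 in FeO, a mean of 1.02, and of 0.24 and 0.70 in FeD, a mean of 0.47. Trib3, a pseudokinase of the same response, was the lowest in both diets, with means of -0.83 in FeD and -0.59 in FeO. Atf4, the transcription factor at its centre, was at -0.11 in FeD and -0.08 in FeO, and Asns, the asparagine synthetase, at -0.11 and -0.13.

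The lists of serine synthesis, glycine cleavage and glyoxylate had no gene past a log2 ratio of 1. Psph, the last enzyme of serine synthesis, was at 0.12 in FeD and 0.29 in FeO. Of the glycine cleavage system, Gcsh was the lowest at -0.18 and -0.14 and Dld the highest at 0.02 and 0.24. Of the glyoxylate genes, Glyctk, the glycerate kinase, was the lowest at -0.16 and -0.24, and Hao1, the glycolate oxidase, the highest at 0.19 and 0.54. In the list of threonine breakdown, which holds Tdh and Gcat, Sdsl, a serine dehydratase relative, was at -0.0049 and 0.04, and Sds was not well above background in any channel.

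**Figure D3:**
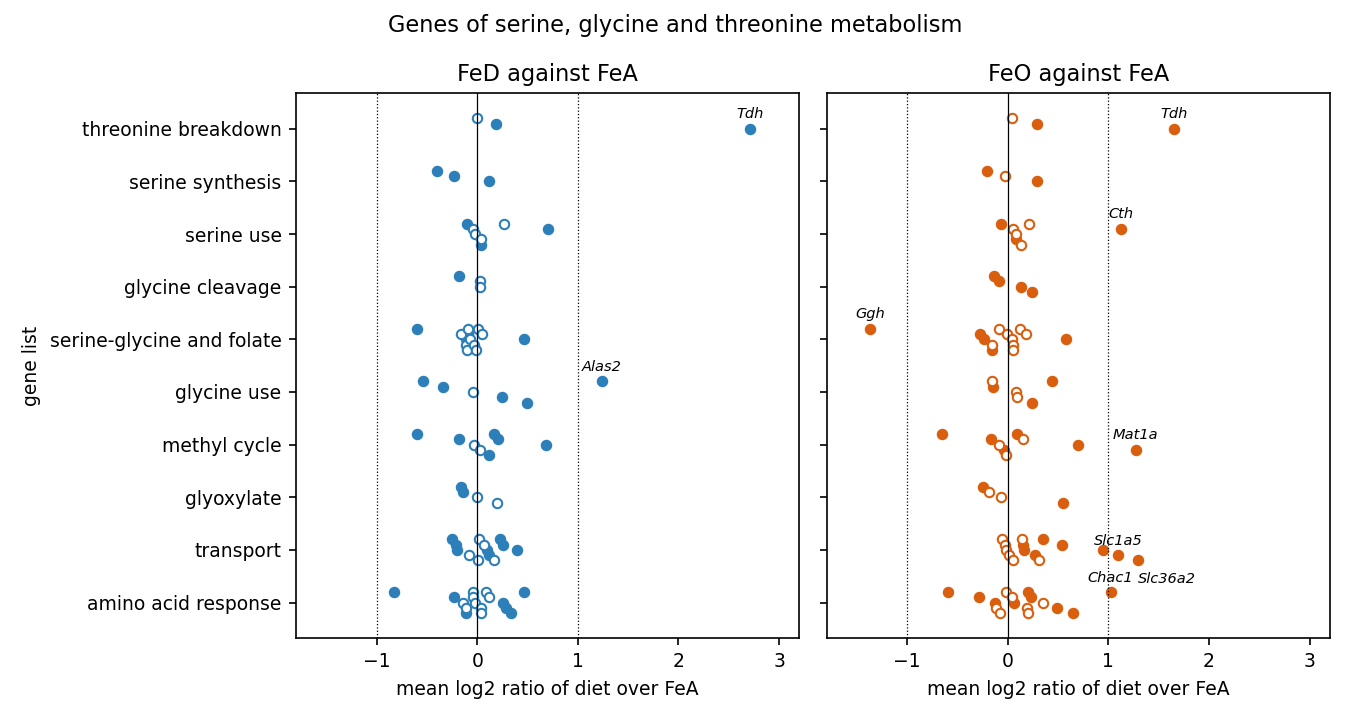
Mean log2 ratio of diet over FeA (x axis) of each tested gene in the 10 pathway lists (y axis), for FeD and FeO. Filled points had the same sign on both arrays, open points did not, dotted lines mark a log2 ratio of 1 in size, and genes past it are named. Tdh stands at 2.71 in FeD and 1.65 in FeO, with Alas2 the other named gene in FeD and 6 others named in FeO.

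The genes whose 4 array ratios lay nearest to those of Tdh were found by Euclidean distance among 15244 genes. The nearest was Alox15, a lipoxygenase, at a distance of 1.89, with a mean log2 ratio of 3.51 in FeD and 0.71 in FeO. Gpt, the alanine aminotransferase, followed at a distance of 2.34, with means of 1.07 in FeD and 1.48 in FeO. Slc39a4l came next at 2.38 with means of 1.15 and 1.05, then the unnamed probe A_64_P109342 at 2.59 with 1.00 and 1.09, and then Pf4, platelet factor 4, at 2.63 with 1.04 and 0.88. No gene lay as close to Tdh as 1 log2 unit over the 4 ratios.

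Marker genes of the cells that pancreas RNA can hold were read on the same arrays. Acinar markers were bright in every pool. Their levels were summed over the 14 probes with a value in every channel, saturated spots counted at their value. The sums were 3403000 to 4206000 intensity units in FeA, 3731000 to 4136000 in FeD and 3294000 to 3472000 in FeO. Of 19 acinar genes tested in FeD, 12 had a saturated spot in at least 1 channel, as did 7 of 13 in FeO, where outlier marks of the scanner software had removed 6 others. The median log2 ratio of the genes without saturation was -0.04 in FeD over 7, from Ptf1a at -0.33 to Nr5a2 at 0.31, and -0.28 in FeO over 6, from Ptf1a at -0.71 to Nr5a2 at 0.29. With the saturated genes the median was 0.14 in FeD and -0.25 in FeO, so the FeD median has no settled sign.

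Markers of other tissues differed between the pools. By the mean of both arrays, adipocyte genes were higher in FeO in 10 of 10. Their median was 1.69, from Lep at 0.10 to Cfd at 2.30. The FeO arrays of Lep pointed in opposite directions, -0.11 and 0.31, and Plin1 was not well above background in FeA. The summed level of the adipocyte genes was 40320 to 41040 in FeO against 9767 to 12410 in FeA. In FeD the adipocyte median was -0.22 over 9 genes, from Retn at -0.44 to Adipoq at 0.21, and the summed level was 8887 to 9986. Lymphocyte genes were higher in FeD in 10 of 10, with a median of 0.43, from Cd2 at 0.24 to Glycam1 at 1.15, and lower in FeO in 8 of 8, with a median of -0.45, from Glycam1 at -2.75 to Ccr7 at -0.10. Their summed level was 5476 to 6364 in FeD, 2837 to 3243 in FeA and 1235 to 1336 in FeO. Cd2 and Ms4a1 passed the filter in FeD only through the FeD pool, where they were higher. Cd3e passed it in FeO only through the FeA pool, where it was higher, so nothing is read from these counts.

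Intestinal epithelial genes had a mean ratio below 0 in 9 of 9 in both diets, with medians of -1.38 in FeD and -1.82 in FeO. Over all genes 53.0% were above 0 in FeD and 53.5% in FeO. Cdh17 and Fabp2 passed the filter only through the FeA pool, where they were higher, so nothing is read from the count of 9. Fabp2 was the lowest in FeD, where it was not well above background and was at least 6.77-fold lower than in FeA, and Lgals4 was the lowest in FeO at -3.59. Vil1 was the highest of these at -0.19 and -0.13. The arrays of Vil1 pointed in opposite directions in both diets, -0.755 and 0.37 in FeD and -0.55 and 0.28 in FeO. The 2 probes of Alpi differed, with means of -2.41 and -0.34 in FeD and -2.58 and -0.29 in FeO. The summed level of the list was 2739 to 2849 in FeD and 2047 to 2285 in FeO against 7529 to 7846 in FeA, and Si, a defining marker, was not well above background in any channel.

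Islet genes had medians of -0.22 in FeD, from Iapp at -0.55 to Ppy at 0.22, and -0.29 in FeO, from Ppy at -1.08 to Gcg at 1.15. Their summed level was 163900 to 177400 in FeD and 126300 to 143700 in FeO against 202800 to 252400 in FeA. Duct genes had medians of 0.04 and -0.03, from Krt19 at -0.33 to Sox9 at 0.24 in FeD and from Krt19 at -0.98 to Onecut1 at 0.30 in FeO, and summed levels of 7019 to 8048 in FeD, 6919 to 7850 in FeA and 5795 to 6966 in FeO.

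Of 10 liver genes 3 were tested in FeD, where Serpina1 was the lowest at -0.15 and Alb the highest at 0.20. In FeO 5 were tested, with a median of 0.53, or 0.49 with the 2 genes not well above background in FeA at their bound. Alb had log2 ratios of 0.68 and 0.57 on the FeO arrays. The highest gene, Cyp2e1, was not well above background in FeA and was at least 1.93-fold higher in FeO. The summed liver level was 3188 to 3337 in FeD, 2921 to 3390 in FeA and 3328 to 3513 in FeO, and Fga, Fgb and Tat were not well above background in any channel. Of 8 kidney tubule genes 5 were tested, with medians of 0.04 and -0.17, from Slc12a1 at -0.15 to Umod at 0.32 in FeD and from Slc12a1 at -0.27 to Aqp2 at 0.0039 in FeO. Their summed level was 1544 to 1771, 1449 to 1909 and 1600 to 1804 in FeD, FeA and FeO, and Kap, Lrp2 and Slc34a1 were not well above background in any channel.

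The part of these cells in the Tdh ratios was not tested.

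**Figure D4:**
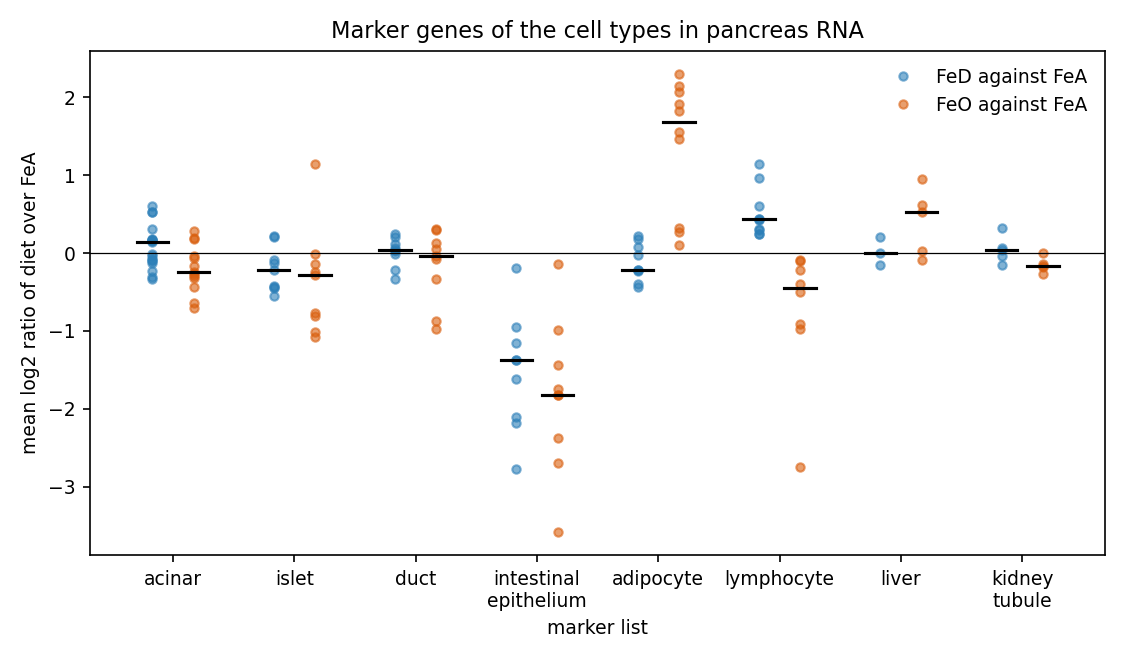
Mean log2 ratio of diet over FeA (y axis) of the tested marker genes in the 8 cell type lists (x axis), for FeD and FeO, where points are genes and black lines are medians. Intestinal epithelial genes lie below 0 in both diets, adipocyte genes lie above 0 in FeO with a median of 1.69, and lymphocyte genes lie above 0 in FeD and below 0 in FeO.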

How the data were processed

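The authors hybridised pooled pancreatic RNA, 6 rats per diet, to Agilent two-colour arrays and read them with Agilent Feature Extraction 10.1.1.1. The deposited intensity values are median spot and local background signals, uncorrected, and processed signals, corrected and dye normalized by the software. The deposited log10 values are red over green ratios, not turned for the dye swap, and closely match the ratio of the processed signals for 83.8% of values. Where values from the processed signals are given below, these log ratios were used. The series tables of the authors hold fold changes, p-values and q-values with a tag per probe, which were not used beyond their gene symbols.

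In R 4.3.3 with limma 3.58.1, signals were corrected by normexp with an offset of 50 and normalized by loess within each array, and swapped arrays were turned. Spots marked as outliers (722 to 938 of 42877 per array) were left out. Spots of a probe, then probes of a gene past the filter, were averaged. A probe was well above background when over 50% of its spots were. The levels of single channels also had Aquantile normalization. Later steps used Python 3.11.15 with pandas 2.3.3 and numpy 2.4.6. Gene symbols came from the authors' table for 16.3% of probes, by accession from the reference table for 59.3%, and 24.4% kept the identifier of the array file.

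The members and lists were chosen with earlier results of these data known. Genes named are all members, pathway genes past a log2 ratio of 1, the lowest and highest gene of each list, and the 5 nearest to Tdh. The value of 1 gene that this rule names is not reported here. Atf4, Asns and Sds, genes named only for a limit of their list, and the second values of genes named for 1 diet, were added after their values were seen. Data with 200 changed probes among 30367 were simulated. The size criterion recovered 49.3% of probes changed by a log2 ratio of at least 2 for FeD and 40.7% for FeO. Some of these were set at exactly 2, at the criterion itself. It called 0 unchanged probes, but the simulated noise was far below the criterion, so this 0 says nothing about false calls on the real arrays. The slope of measured on true ratios was 0.807 and 0.796, so the processing compressed the simulated ratios. Compression of the real ratios was not measured. The alternatives were other background corrections, normalizations, dim probe filters, outlier spots kept, the brightest probe, other size criteria and each array left out. A t-test and limma were also run, which compare the RNA pools and not the diets. Both used the 2 array ratios of a gene, where the study describes a Student's t-test per probe on normalized log2 signals.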

Additional observations from a re-analysis of the deposited data

Results flagged for a closer look

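Ratios of opposite sign between the diets were found in 4 marker genes, each with both FeD arrays on one side of 0 and both FeO arrays on the other, and the differences between diets were not tested. Cfd, an adipocyte gene, had log2 ratios of -0.54 and -0.25 in FeD, a mean of -0.40, and of 2.202 and 2.41 in FeO, a mean of 2.30. Retn, also of adipocytes, had -0.24 and -0.64 in FeD, a mean of -0.44, and 2.04 and 1.62 in FeO, a mean of 1.83. Glycam1, of lymph node vessels, had 1.44 and 0.85 in FeD, a mean of 1.15, and -2.65 and -2.85 in FeO, a mean of -2.75. Umod, of the kidney tubule, had 0.29 and 0.36 in FeD, a mean of 0.32, and -0.27 and -0.08 in FeO, a mean of -0.17. No member gene showed this pattern.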

How the results depend on the processing

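The Tdh log2 ratio was 3.06 in FeD and 2.01 in FeO with a normexp offset of 0. It was 3.28 and 2.14 from the deposited log ratios of the scanner software. It ran from 2.55 to 2.88 in FeD and from 1.43 to 1.88 in FeO with 1 array left out. Tdh therefore lay past a log2 ratio of 2 in FeO under those 2 settings (1 member against 0), and 1 member was past a log2 ratio of 1. In FeD 1 member, Tdh, was past the criterion with the unadjusted t-test and with limma's adjusted test. With the t-test after Benjamini-Hochberg adjustment, 0 members were past it. On 2 arrays the t-test has 1 degree of freedom, so little could pass adjustment over all genes. The count of pathway genes, 2 in FeD and 7 in FeO, was 8 and 15 at a log2 ratio of 0.5. With the t-test it was 1 (Tdh) and 2 (Ggh and Slc36a2, without Tdh), and 0 and 0 with adjusted values. With limma's adjusted test it was 2 and 5, and with 1 array left out it ran from 2 to 3 in FeD and from 5 to 6 in FeO. The genes counted changed as well. Without FeD array 1 Cth came in, and without FeD array 2 Alas2 fell out and Trib3, a lower gene, came in. Without FeO array 1 Mat1a fell out. Without FeO array 2 Chac1, Cth and Slc1a5 fell out and Slc7a10 came in. Over all genes the t-test gave 790 genes in FeD and 1048 in FeO below 0.05 unadjusted and 0 and 0 after adjustment. With limma 63 and 147 remained after adjustment. Of 250 other values under these processing settings, 244 moved by less than the SD between arrays and 6 moved further, all of Gldc, Slc36a2 and Ggh in FeO, with no called ratio changing sign. The arrays or settings gave both signs for Shmt1 and Shmt2 in both diets and for Gatm and Psat1 in FeO. Aquantile leaves ratios within an array as they are, and the other dim probe filters returned the same ratio for each named gene they kept. Keeping outlier spots or taking the brightest probe changed only Gatm. Many of the 244 values therefore had little or no room to move, and their count is no measure of stability. The slide was not run as a block, since the arrays share 1 slide and 1 scan. No paired analysis was possible because each diet is 1 pool and both arrays of a comparison are 1 replicate. The cause of these shifts was not tested. Below background a ratio is only a bound. Leaving out saturated marker genes, and setting genes below background in 1 pool at their bound, were chosen after seeing the data, and the first turned the sign of the acinar median in FeD.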

Other observations

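The order of genes around Tdh was taken from the reference annotation, among protein-coding genes on the array, so genes between them may be left out. Those before Tdh were Gata4, Blk and Fam167a and those after it Mtmr9, Xkr6 and Pinx1, a set looked up after the Tdh values were known. Fam167a, the last before Tdh in this order, had log2 ratios of 0.49 and 0.60 in FeD, a mean of 0.54. In FeO it had 0.87 and 1.14, a mean of 1.00. Gata4, a transcription factor of the pancreas and other organs, had 0.02 and 0.73 in FeD and 0.01 and 0.91 in FeO. Mtmr9, the first after Tdh in this order, had means of 0.10 in FeD and 0.32 in FeO, and Pinx1 of 0.0056 and -0.15. Blk passed the filter in FeD, at a mean of 0.11, and Xkr6 in FeO, at 0.02.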
